A study of Mus musculus with 12 samples.

Results

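The response of mouse kidney cortex to bacterial lipopolysaccharide (LPS) in ethanol-fed animals was described from 6 of the 12 RNA-seq libraries of the series, 3 without LPS (EtOH) and 3 with it (EtOH_LPS). A gene was included when it reached at least 1 FPKM in at least 3 of these 6 libraries, which 12946 of the 47719 genes in the table did. FPKM (fragments per kilobase of transcript, scaled to the number of mapped fragments) is a level adjusted for transcript length and library depth. All mice were male C57BL6/J, 8 weeks old. Both groups had drunk the liquid Lieber-DeCarli diet with ethanol at will for 6 weeks, its ethanol content raised in steps to 6%, and received either saline or 10 mg/kg E. coli LPS intraperitoneally 4 hours before sacrifice. The remaining 6 libraries came from pair-fed mice, whose diet held maltose-dextrin in place of ethanol, injected with saline (PF, 3 libraries) or the same LPS dose (PF_LPS, 3 libraries). They were used for the estimate of the spread and for the comparison of the LPS effect between diets. Each group holds replicates 1 to 3, and whether each came from its own mouse is not stated. The spread behind the p-values is that between libraries, which may be technical. The RNA was total RNA of cortex sections, a mixture of tubules, vessels, glomeruli and interstitial cells, and in such bulk samples fewer cells of a type and less RNA per cell cannot be told apart.

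LPS is sensed by TLR4 on leukocytes, endothelium and tubule cells, and the released cytokines act on the whole organ. Immediate early transcription factors rise first, followed by protective genes against oxidants, heme and free metal ions. The kidney cortex consists largely of proximal tubules, which burn fatty acids in their mitochondria to drive the reabsorption of sodium, glucose, phosphate and amino acids. Peritubular and glomerular endothelium supplies them with blood, and its quiescence is maintained by angiopoietin signalling through the receptor Tek.

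The table holds no fragment totals. The depth of the 6 libraries, estimated from the steps between low FPKM values, was 0.771 to 1.01 relative to EtOH library 1 in the other EtOH libraries and 0.714 to 0.821 in EtOH_LPS. Each library had between 12354 and 13023 genes at or above 1 FPKM. Proximal tubule transcripts reached high levels, as the cortex label implies. The androgen-regulated Kap was at 43260 FPKM and the phosphate transporter Slc34a1 at 782 FPKM on average in EtOH. Their share of all transcripts was not computed. The FPKM total came to 34.6% to 34.9% from small RNA genes in EtOH libraries, and to 31.7% to 41.8% in EtOH_LPS libraries. Of 10 markers of inner medulla and urothelium only 3 were tested, and none of 9 adrenal markers was. The 3 libraries of a group correlated with each other at a mean r of 0.9584 to 0.9636 in EtOH and 0.9403 to 0.9515 in EtOH_LPS. EtOH_LPS library 1 had the lowest of these values. Its deviation from the mean of its own group declined with GC content, with a slope of -0.345 (log2 per 10% GC). EtOH_LPS libraries 2 and 3 had slopes of 0.164 and 0.181. Such slopes cancel out within a group by construction, so they are not compared between groups. Among the pair-fed libraries, which enter the estimate of the spread, PF_LPS library 2 had a slope of -0.464 against its own group mean and the lowest mean r, 0.9279.

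After LPS, 1444 genes (11.2% of those tested) were higher and 914 (7.06%) were lower in the limma fit at an adjusted p under 0.05. These shares are the background for the list counts below. Fold changes are on the log2(FPKM + 1) scale, which understates changes of genes at low FPKM, and errors beside them are standard errors. A change of at least 1 log2 unit was reached by 973 of the higher and 295 of the lower genes, while the median over all genes tested was 0.02. The 3 LPS libraries lay above all 3 saline libraries for 2484 genes (19.2%) and below them for 1945 (15.0%). Of the genes tested, 345 were under 1 FPKM in all 3 saline libraries and 264 in all 3 LPS libraries. They passed the filter only through the other group, so their lack of overlap was fixed in advance. Among those named below are Atf3, Maff, Lcn2, Havcr1, Ccl2, Il6, Steap4, Mlkl, Zbp1, Hk2, Acod1, Ch25h, Nos2, Gch1 and Aldh1a2 (higher). Further higher ones are Ptgs2, Edn1, Adora2b, Angpt2, Selp, Sele, Timp1, Serpina3g, Cd44, Sox9, Stc1 and Inhbb. Lower ones are Cyp26b1, Rarg, Ptpru, Tlr12, Bsnd, Cldn15, Clic3, Gata2, Cd300lg, Slc9a3r2 and Snhg9. The p-values of all such genes and their place in the list counts carry this selection. The balance of the directions depended on the scaling, since on the ethanol diet the summed FPKM was larger in every LPS library than in any saline library. With every library set to the same total, the median fold change moved by -0.29, and 926 genes were higher and 1749 lower (34.6% higher of those called, against 61.2%). With the total taken over protein-coding genes they were 984 and 2260 (30.3% higher). No gene called in the main analysis changed sign in any alternative. The number of lower genes also rested on single libraries: it was 557, 594 and 584 without EtOH library 1, 2 or 3, and 552 and 542 without EtOH_LPS library 2 or 3.

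The 3 EtOH_LPS libraries were not equally far from saline. Library 1 was the LPS library closest to the saline mean for 746 of the 1444 higher genes and 584 of the 914 lower genes, 56.4% of both together. For type I interferon genes the 3 LPS libraries stood close together, with median differences from the saline mean of 4.09, 4.18 and 4.39 log2 units in libraries 1, 2 and 3. For tubular injury markers the same medians were 1.36, 2.82 and 3.50, and for acute-phase proteins 4.30, 6.13 and 6.30, lowest in library 1 in both lists. Without library 1, 1485 genes were higher and 1097 lower, 1310 and 785 of them shared with the full analysis. The GC slope of library 1 moved with this difference, and its part was not tested.

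**Figure D1:**
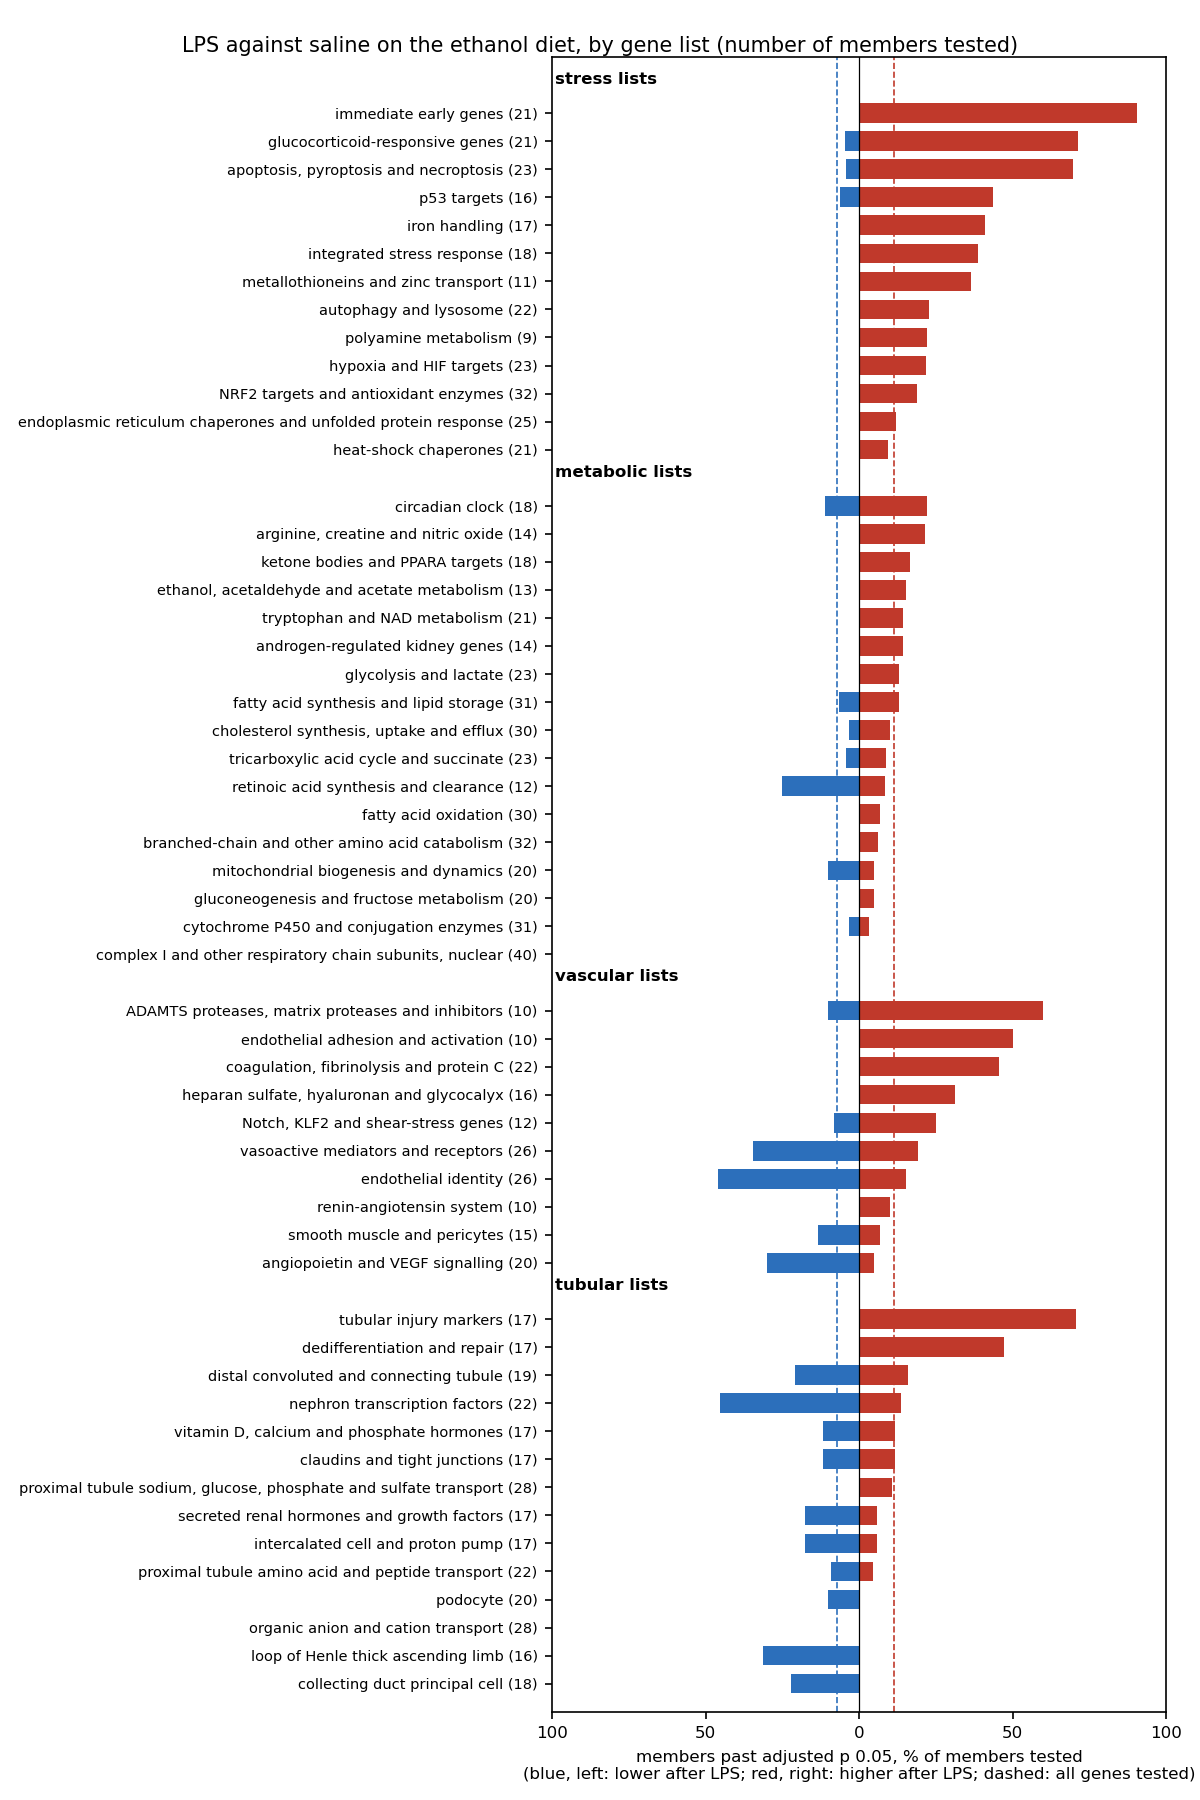
Share of each gene list past an adjusted p of 0.05, as a percentage of its members tested (number in parentheses), for lists of the stress, metabolic, vascular and tubular themes. Red bars to the right are genes higher after LPS, blue bars to the left genes lower, and the dashed lines mark the shares over all genes tested, 11.2% and 7.06%. Immediate early genes extend farthest to the right, followed by the glucocorticoid, tubular injury and cell death lists, endothelial identity and nephron transcription factors farthest to the left, and respiratory chain and organic ion transport lists have no bar.

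Inflammatory genes rose almost throughout. Of 25 tested type I interferon genes, 25 rose, led by Ifit1 (8.11 log2 units) and Ifit2 (7.73), which restrain the translation of viral RNA. Of 23 cytokines and chemokines, 22 rose, with Cxcl10 at 0.814, 1.67 and 2.07 FPKM in the saline libraries and 1985, 1567 and 1855 FPKM in the LPS libraries. Ccl2, which attracts monocytes, and Il6 rose by 7.27 and 6.58. Of 22 neutrophil and inflammatory monocyte markers, 9 were tested, 8 rose and 1 fell. The whole list summed to between 7.58 and 10.6 FPKM in the saline libraries and between 188 and 280.5 FPKM in the LPS libraries, whereas the defining neutrophil markers Ly6g, Mpo and Elane stayed under 1 FPKM in all 6 libraries. Ly6g was at 0, 0 and 0 FPKM in the saline and 0, 0.84 and 0.0701 FPKM in the LPS libraries. Resident macrophage and dendritic cell markers summed to 146 to 165 FPKM in saline and 128 to 179 FPKM in LPS libraries, and 1 of 14 rose. The rise of the neutrophil and inflammatory monocyte list went along with the vascular and tubular results given further on, and its part in them was not tested.

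Among stress genes, the immediate early transcription factors and RNA regulators had the largest share past the threshold: 19 of 21 tested members (25 listed) rose, none fell, and the median was 1.96 log2 units (1.78 to 2.04 over the scalings and the GC correction). Atf3, a repressor of the ATF/CREB family (chromosome 1, 191170296 to 191218039, mm10), was at 0.671, 0.354 and 0.396 FPKM in the saline libraries and 17.8, 56.8 and 50.5 FPKM in the LPS libraries (4.70 ± 0.37; adjusted p = 1.96e-06). LPS library 1 was the lowest of the 3, and all LPS values were far above saline. Klf6, a zinc-finger factor induced in injured tubules, went from 7.64, 11.5 and 11 to 162, 226 and 236 FPKM (4.24 ± 0.20; adjusted p = 1.86e-08). The antiproliferative gene Btg2 rose from 4.46, 4.33 and 4.12 to 59.1, 114 and 113 FPKM (4.12 ± 0.28). Maff, a small partner of NRF2 and its competitor BACH1, rose by 4.45 ± 0.35. In Klf6 and Btg2, too, library 1 was the lowest LPS library while no LPS value came near saline.

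Glucocorticoid-responsive genes came next, with 15 of 21 tested members higher and 1 lower and a median of 1.62. The list mixes targets of the receptor with genes that inflammation induces directly, such as Lcn2, and it shares Mt1, Mt2, Pdk4 and Angptl4 with other lists. Cebpd, an acute-phase transcription factor, rose by 3.47 ± 0.20 and Errfi1, a feedback inhibitor of the EGF receptor, by 1.31 ± 0.20 from an already high 234 ± 56.2 FPKM (SD, n = 3). The member that fell was Hsd11b2, which protects the mineralocorticoid receptor of the distal nephron from glucocorticoids, at 18, 18.8 and 14.7 FPKM in saline and 9.94, 6.75 and 11.4 FPKM in LPS libraries (-0.83 ± 0.26; adjusted p = 0.0416). For Hsd11b2 the call was lost in 8 of 20 alternative analyses (adjusted p up to 0.172), among them those without EtOH library 1, 2 or 3 or EtOH_LPS library 1 or 2.

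The metallothionein genes Mt1 and Mt2 rose strongly, and most zinc transporter genes did not pass the threshold. Metallothioneins are small cysteine-rich proteins that bind zinc, copper and cadmium, and their genes are switched on by the zinc-sensing factor MTF1 at short metal response elements. The promoters of Mt1 and Mt2 are shown with that of the zinc exporter Slc30a1, another MTF1 target, because the 3 genes share the element and differed in their change. The windows run from 250 bases before to 50 after the RefSeq start (GRCm38.p6). Mt1 lies at chr8:94178839-94179138 and Mt2 at chr8:94172368-94172667, both on the plus strand, and Slc30a1 at chr1:191906531-191906830, plus strand. Capitals mark every match to TGCNCNC on either strand.
Mt1: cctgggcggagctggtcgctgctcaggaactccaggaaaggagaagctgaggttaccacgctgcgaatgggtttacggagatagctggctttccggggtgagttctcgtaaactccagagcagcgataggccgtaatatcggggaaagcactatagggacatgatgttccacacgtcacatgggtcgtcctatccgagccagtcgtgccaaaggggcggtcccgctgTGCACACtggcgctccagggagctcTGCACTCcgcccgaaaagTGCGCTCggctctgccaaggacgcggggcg
Mt2: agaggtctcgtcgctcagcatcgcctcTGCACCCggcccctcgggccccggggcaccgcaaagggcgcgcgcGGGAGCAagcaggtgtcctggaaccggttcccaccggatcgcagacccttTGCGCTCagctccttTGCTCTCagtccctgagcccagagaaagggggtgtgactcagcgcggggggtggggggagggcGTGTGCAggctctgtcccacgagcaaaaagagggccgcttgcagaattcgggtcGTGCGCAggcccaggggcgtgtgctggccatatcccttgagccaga
Slc30a1: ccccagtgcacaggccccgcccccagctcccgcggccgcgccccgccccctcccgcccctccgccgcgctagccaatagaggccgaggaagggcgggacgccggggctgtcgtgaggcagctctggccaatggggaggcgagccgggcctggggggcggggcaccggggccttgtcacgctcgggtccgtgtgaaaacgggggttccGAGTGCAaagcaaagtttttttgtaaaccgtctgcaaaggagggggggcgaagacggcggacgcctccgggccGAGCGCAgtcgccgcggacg
The windows hold 3, 6 and 2 matches. At least 1 match occurred in 51% of the 32851 RefSeq promoters searched, so a single match is common, and a match is a stretch of letters, not a shown binding site. In the Mt2 window 1 AP-1 match (TGANTCA) and 1 antioxidant element match (TGANNNNGC) overlap each other and begin at position -79 from the start. AP-1 matches occurred in 7.81% and antioxidant element matches in 41.3% of all promoters.

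Mt2 went from 3.72, 5.27 and 3.91 FPKM in the saline libraries to 183, 176 and 317 FPKM in the LPS libraries (5.37 ± 0.27; adjusted p = 3.04e-08). Mt1 went from 17.5, 15.9 and 17.2 to 125, 189.6 and 318 FPKM (3.46 ± 0.34; adjusted p = 1.42e-05). In both genes LPS library 3 was the highest, and the groups lay far apart. Slc30a1, chosen for this comparison after its values were seen, was at 14.9, 17.1 and 16.5 FPKM in saline and 13.5, 10.4 and 9.59 FPKM in LPS libraries (-0.51 ± 0.22; adjusted p = 0.152) and did not pass. Of 11 tested members of the zinc list, 4 rose and none fell. Besides the metallothioneins these were the importers Slc39a14 (1.88 ± 0.18), which also carries non-transferrin iron, and Slc39a1 (0.84 ± 0.15; lost with equal total FPKM, adjusted p = 0.106).

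Hmox1, the heme oxygenase that breaks heme into biliverdin, carbon monoxide and iron (chromosome 8, 75093621 to 75100589, mm10), was at 6.08, 6.17 and 6.56 FPKM in the saline libraries and 106, 125 and 299 FPKM in the LPS libraries (4.45 ± 0.36; adjusted p = 2.28e-06). LPS library 3 was far above the other two, and the saline values lay within a narrow band. Hmox1 led the 6 of 32 tested NRF2 targets and antioxidant enzymes that rose, and none of that list fell. Gclc, the catalytic subunit of the rate-limiting enzyme of glutathione synthesis, went from 39, 42.3 and 40 to 84.3, 188 and 162 FPKM (1.74 ± 0.27; adjusted p = 0.000604). Txn1 (thioredoxin) rose by 1.14 ± 0.24 and Txnrd1, its reductase, by 1.12 ± 0.22, the latter lost with equal total FPKM, adjusted p = 0.0898. The most abundant member, the plasma glutathione peroxidase Gpx3, was at 5322 FPKM in EtOH and 6469 FPKM in EtOH_LPS on average and did not pass (0.28 ± 0.23; adjusted p = 0.489). In the iron list 7 of 17 tested members rose, among them the ferrireductase Steap4 (5.04 ± 0.27) and the ferroxidase ceruloplasmin Cp (2.70 ± 0.29). The ferritin heavy chain Fth1 was at 2188, 1840 and 1922 FPKM in saline and 2684, 4710 and 4016 FPKM in LPS libraries, and the call was lost in 10 of 20 alternative analyses (adjusted p up to 0.373), among them those without EtOH library 1, 2 or 3 or EtOH_LPS library 2 or 3.

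**Figure D2:**
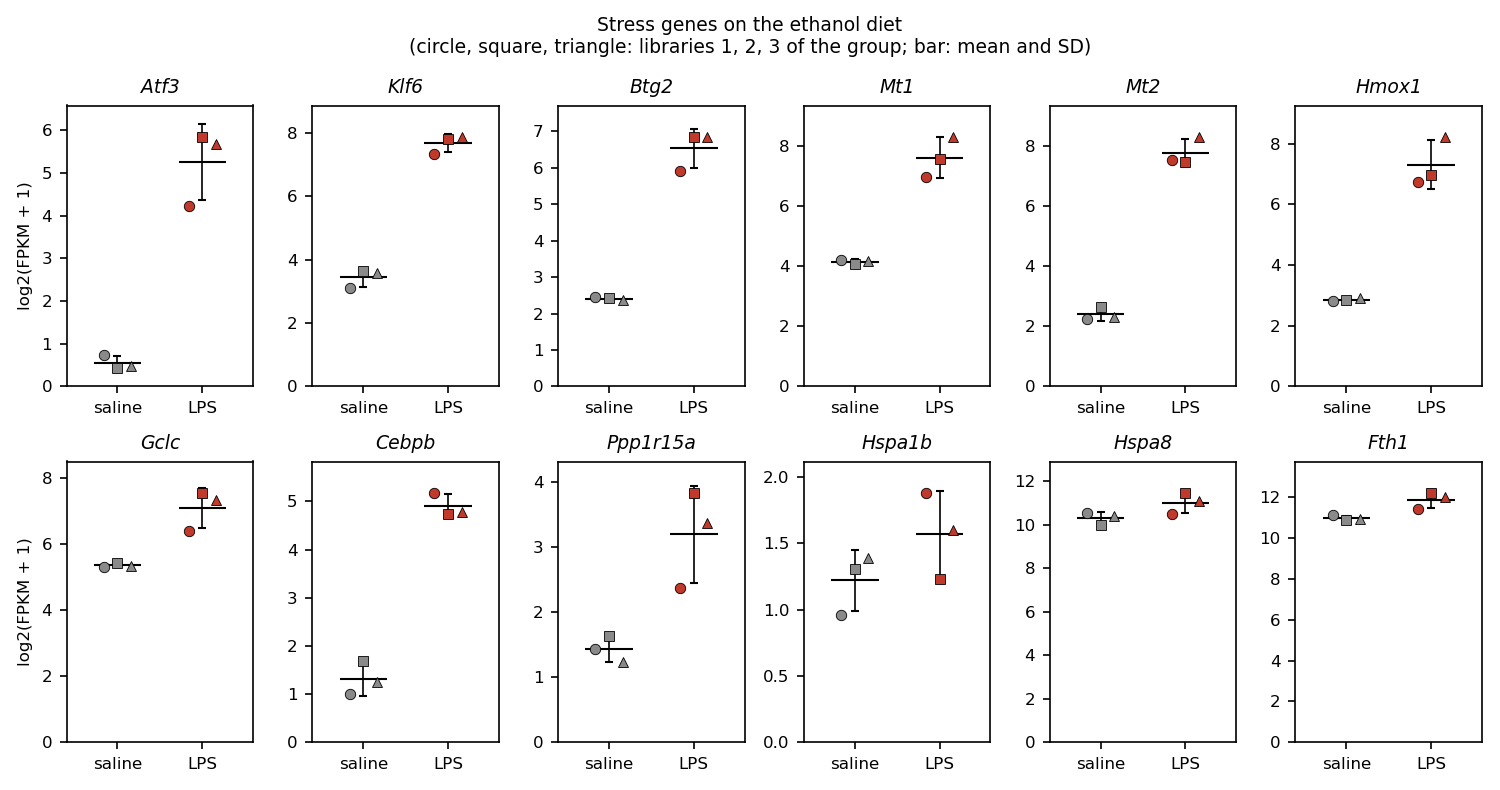
Level of 12 stress genes as log2(FPKM + 1) in the 3 saline (grey) and 3 LPS (red) libraries of the ethanol diet, with mean and SD; circles, squares and triangles are libraries 1, 2 and 3. Atf3, Klf6, Btg2, Mt1, Mt2, Hmox1, Gclc and Cebpb show groups far apart, whereas the groups overlap for the chaperones Hspa1b and Hspa8.

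In the integrated stress response, which slows translation through phosphorylated eIF2 alpha and acts through ATF4, 7 of 18 tested members rose and none fell. Cebpb rose from 1.01, 2.23 and 1.38 to 35.2, 25.9 and 26.4 FPKM (3.58 ± 0.22; adjusted p = 2.13e-07), and Ppp1r15a, which reverses the phosphorylation of eIF2 alpha, rose by 1.75 ± 0.34. The stress-inducible Nupr1 and the mTORC1 inhibitor Ddit4 rose by 1.76 ± 0.37 and 1.70 ± 0.24. Ddit3, the pro-apoptotic factor CHOP, was at 3.56, 3.39 and 3.47 FPKM in saline and 4.26, 8.22 and 9.24 FPKM in LPS libraries and did not pass (0.82 ± 0.28; adjusted p = 0.0587), although the groups did not overlap. The stress cytokine Gdf15 stayed under the expression filter, at 0.222, 0.245 and 0.25 FPKM in saline and 0.573, 2.4 and 5.24 FPKM in LPS libraries.

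Of 25 tested endoplasmic reticulum genes 3 rose, a share close to the 11.2% over all genes tested, and with equal total FPKM 1 did. The unfolded protein response factor Xbp1 rose by 2.16 ± 0.25 (adjusted p = 6.6e-05). The degradation factor Herpud1 (1.08 ± 0.26; lost in 5 of 20 alternatives, adjusted p up to 0.142, also without EtOH library 2 or EtOH_LPS library 2) and the co-chaperone Dnajb9 (0.91 ± 0.25; lost in 6 of 20 alternatives, adjusted p up to 0.121, also without EtOH library 1 or EtOH_LPS library 3) were less stable. The most abundant reticulum chaperone Hsp90b1 was at 775 and 854 FPKM on average without and with LPS and did not pass. Of 21 cytosolic heat-shock genes, 2 rose, a share of the list close to that of all genes. These were the co-chaperones Dnajb4 (1.57 ± 0.28; adjusted p = 0.00161) and Bag3. The inducible HSP70 gene Hspa1b was at 0.947, 1.48 and 1.63 FPKM in saline and 2.69, 1.35 and 2.03 FPKM in LPS libraries (0.35 ± 0.25; adjusted p = 0.41). The groups overlapped in Hspa1b. The constitutive Hspa8 was at 1467, 1005 and 1341 FPKM in saline and 1441, 2816 and 2130 FPKM in LPS libraries (0.71 ± 0.35; adjusted p = 0.212). Hspa1a and Hspa1b are near-identical copies, so the split of fragments between them is uncertain. The medians of the reticulum and heat-shock lists, 0.21 and 0.32, changed sign with equal total FPKM (-0.11 and -0.01).

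Of 23 tested genes of programmed cell death 16 rose and 1 fell, with a median of 1.50. Casp4, the intracellular LPS sensor that triggers pyroptosis (caspase-11), went from 1.25, 2.46 and 1.16 to 76.3, 56.8 and 58.7 FPKM (4.65 ± 0.26; adjusted p = 6.29e-08). The necroptosis effector Mlkl rose by 3.83 ± 0.20, the nucleic acid sensor Zbp1 by 3.66 ± 0.33 and the death receptor Fas by 3.60 ± 0.21. Cflar, which restrains caspase-8, rose as well, by 1.86 ± 0.20. Among 16 tested p53 targets 7 rose and 1 fell. The cell-cycle inhibitor Cdkn1a went from 0.972, 0.385 and 1.2 to 7.21, 10.6 and 12.9 FPKM (2.60 ± 0.25), Gadd45a rose by 2.66 ± 0.18 and the p53 ligase Mdm2 by 1.45 ± 0.16. Ccng1, the most abundant of that list, did not pass (0.19 ± 0.22).

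Hypoxia genes rose in 5 of 23 tested members and fell in none, against 3 and 5 with equal protein-coding totals. Hif1a, the oxygen-regulated transcription factor, rose by 1.32 ± 0.16 (adjusted p = 0.000102) and Hk2, which commits glucose to glycolysis, by 2.02 ± 0.27. Ndrg1 was the most abundant member, and the call was lost in 11 of 20 alternative analyses (adjusted p up to 0.217), among them those without EtOH library 1 or 2 or EtOH_LPS library 1, 2 or 3. Vegfa, the classic target of the pathway, was at 39.7 and 28.9 FPKM on average and did not pass (-0.42 ± 0.19). Of 22 autophagy and lysosome genes 5 rose, and none did with equal total FPKM, where 1 fell. The cargo receptor Sqstm1 had a mean of 257 ± 53.6 FPKM without and 719.8 ± 278 FPKM with LPS (SD, n = 3 each; 1.42 ± 0.30), lost with equal total FPKM, adjusted p = 0.0588. Of 9 polyamine genes 2 rose, Sat1, which acetylates polyamines for export, by 1.68 ± 0.24, and the antizyme inhibitor Azin1 by 0.85 ± 0.17, lost in 3 of 20 alternatives, adjusted p up to 0.126, all of them scalings.

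Among metabolic genes, Pdk4, the kinase that shuts pyruvate dehydrogenase and spares glucose, was at 4.01, 5.49 and 3.78 FPKM in the saline libraries and 18.8, 250 and 457 FPKM in the LPS libraries (4.61 ± 1.01; adjusted p = 0.0119). LPS library 1 stood between saline and the other LPS libraries, and with the 6 ethanol-diet libraries alone the adjusted p was 0.0997. Angptl4, a secreted inhibitor of lipoprotein lipase, rose from 4.82, 5.76 and 6.07 to 23.3, 129.5 and 105 FPKM (3.41 ± 0.57; adjusted p = 0.00145). LPS library 1 again stood between saline and the other LPS libraries. Plin2, the coat protein of lipid droplets, was at 38.2, 32.9 and 29.6 FPKM in saline and 47.6, 242 and 389 FPKM in LPS libraries (2.27 ± 0.65; adjusted p = 0.0321), where library 1 was close to saline, and the call was lost in 10 of 20 alternative analyses (adjusted p up to 0.136), among them those without EtOH library 1, 2 or 3 or EtOH_LPS library 2 or 3. These were the 3 of 18 tested ketone body and PPARA target genes that rose, and none fell.

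Of 30 tested fatty acid oxidation genes 2 rose (5 without EtOH_LPS library 1, none with equal total FPKM) and none fell (1 with equal protein-coding totals). The median was 0.35, which changed to 0.02 with equal total FPKM and to -0.01 with equal protein-coding totals. One of them was the mitochondrial carnitine transferase Cpt2 (0.69 ± 0.20; adjusted p = 0.0352), and the call was lost in 10 of 20 alternative analyses (adjusted p up to 0.41), among them those without EtOH library 1 or 2 or EtOH_LPS library 2 or 3. Cpt1a, the gate of mitochondrial fatty acid entry, was at 93, 73.1 and 84 FPKM in saline and 86.3, 102 and 131 FPKM in LPS libraries (0.33 ± 0.20; adjusted p = 0.324). None of the 40 nuclear subunits of the respiratory chain and ATP synthase passed, with the ATP synthase subunit Atp5b at 1961 and 2476 FPKM on average. Their median of 0.29 became -0.05 with equal total FPKM. Of 20 genes of mitochondrial biogenesis and dynamics 1 rose and 2 fell (4 without EtOH_LPS library 1). The coactivator Ppargc1a, which drives mitochondrial biogenesis, fell from 24.4, 23.3 and 25.5 FPKM in saline to 18, 5.67 and 5.38 FPKM in LPS libraries (-1.45 ± 0.36; adjusted p = 0.0142). Here too library 1 lay nearest to saline, and the call was lost in 2 of 20 alternative analyses (adjusted p up to 0.0694), all those without EtOH_LPS library 2 or 3. The mitochondrial DNA helicase Twnk fell by 0.85 on the log2 scale. The one that rose was Pprc1, a coactivator related to Ppargc1a (1.26 ± 0.29; adjusted p = 0.00874; lost with equal total FPKM, adjusted p = 0.0625).

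Pfkfb3, which makes the allosteric activator of phosphofructokinase, went from 3.81, 5.24 and 3.22 to 59.9, 70.5 and 83.9 FPKM (3.83 ± 0.22; adjusted p = 7.73e-08), with all LPS values far above saline. With Hk2 (2.02 ± 0.27) and the platelet-type phosphofructokinase Pfkp (0.96 ± 0.20; adjusted p = 0.00499) it made up the 3 of 23 tested glycolytic genes that rose, a share close to the 11.2% over all genes tested, and none fell. For Pfkp the call was lost in 2 of 20 alternative analyses (adjusted p up to 0.0835). Ldhb, the most abundant member, did not pass (0.09 ± 0.25), and the lactate exporter Slc16a3 stayed under the filter. Gluconeogenesis, a task of the proximal tubule, had 1 of 20 members past the threshold. Pck1, its rate-controlling enzyme, was at 1420, 1445 and 1190 FPKM in saline and 1340, 1993 and 1728 FPKM in LPS libraries (0.31 ± 0.28; adjusted p = 0.528). The member that passed was the insulin receptor substrate Irs2 (1.20 ± 0.29), and the call was lost in 4 of 20 alternative analyses (adjusted p up to 0.0802), among them those without EtOH library 3 or EtOH_LPS library 2.

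Around the tricarboxylic acid cycle, 2 of 23 tested genes rose and 1 fell, both shares below those over all genes tested. Acod1, which makes the antimicrobial metabolite itaconate, was at 0.0175, 0.0453 and 0 FPKM in the saline libraries and at 10.6, 7.86 and 8.66 FPKM in the LPS libraries (3.29 ± 0.16; adjusted p = 2.32e-08). Acod1 passed the expression filter through the LPS libraries alone. Sucnr1, the receptor through which extracellular succinate signals in the kidney (chromosome 3, 60081869 to 60087566, mm10), fell from 47.4, 56 and 45.1 FPKM in saline to 10.1, 4.01 and 3.44 FPKM in LPS libraries (a ratio of means of 8.47, saline over LPS; adjusted p = 2.18e-05). Library 1 again kept the highest of the LPS values. Fumarase, Fh1, rose (0.82 ± 0.20; adjusted p = 0.0135), and the call was lost in 6 of 20 alternative analyses (adjusted p up to 0.136), among them those without EtOH library 1 or 2 or EtOH_LPS library 3. The succinate dehydrogenase subunit Sdha was at 706 and 782 FPKM on average and did not pass.

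Glul, which fixes ammonia into glutamine, was at 220.3, 204 and 217 FPKM in saline and 411, 1330 and 602 FPKM in LPS libraries (1.69 ± 0.35; adjusted p = 0.00483), highest in library 2. With Glud1 (0.98 ± 0.26) it made up the 2 of 32 tested amino acid catabolism genes that rose, a smaller share than the 11.2% over all genes. For Glud1 the call was lost in 7 of 20 alternative analyses (adjusted p up to 0.221), among them those without EtOH library 2 or EtOH_LPS library 2. Nampt, the rate-limiting enzyme of NAD salvage, rose from 35.4, 57.2 and 46.8 to 143, 125 and 123 FPKM (1.49 ± 0.23; adjusted p = 0.000624). Of the NAD-consuming ADP-ribosyltransferases, the interferon-inducible Parp14 and Parp9 rose by 5.46 ± 0.18 and 4.08 ± 0.16, and no other of the 21 tested genes of tryptophan and NAD metabolism passed. In the arginine list Arg2 (2.26 ± 0.31), the inducible nitric oxide synthase Nos2 (1.78 ± 0.27) and Gch1 (1.76 ± 0.21), which makes the cofactor of the synthase, were the 3 of 14 that rose. Nos2 was at 0.17, 0.151 and 0.116 FPKM in saline and 1.64, 3.9 and 3.71 FPKM in LPS libraries, and the endothelial synthase Nos3 stayed under the filter.

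**Figure D3:**
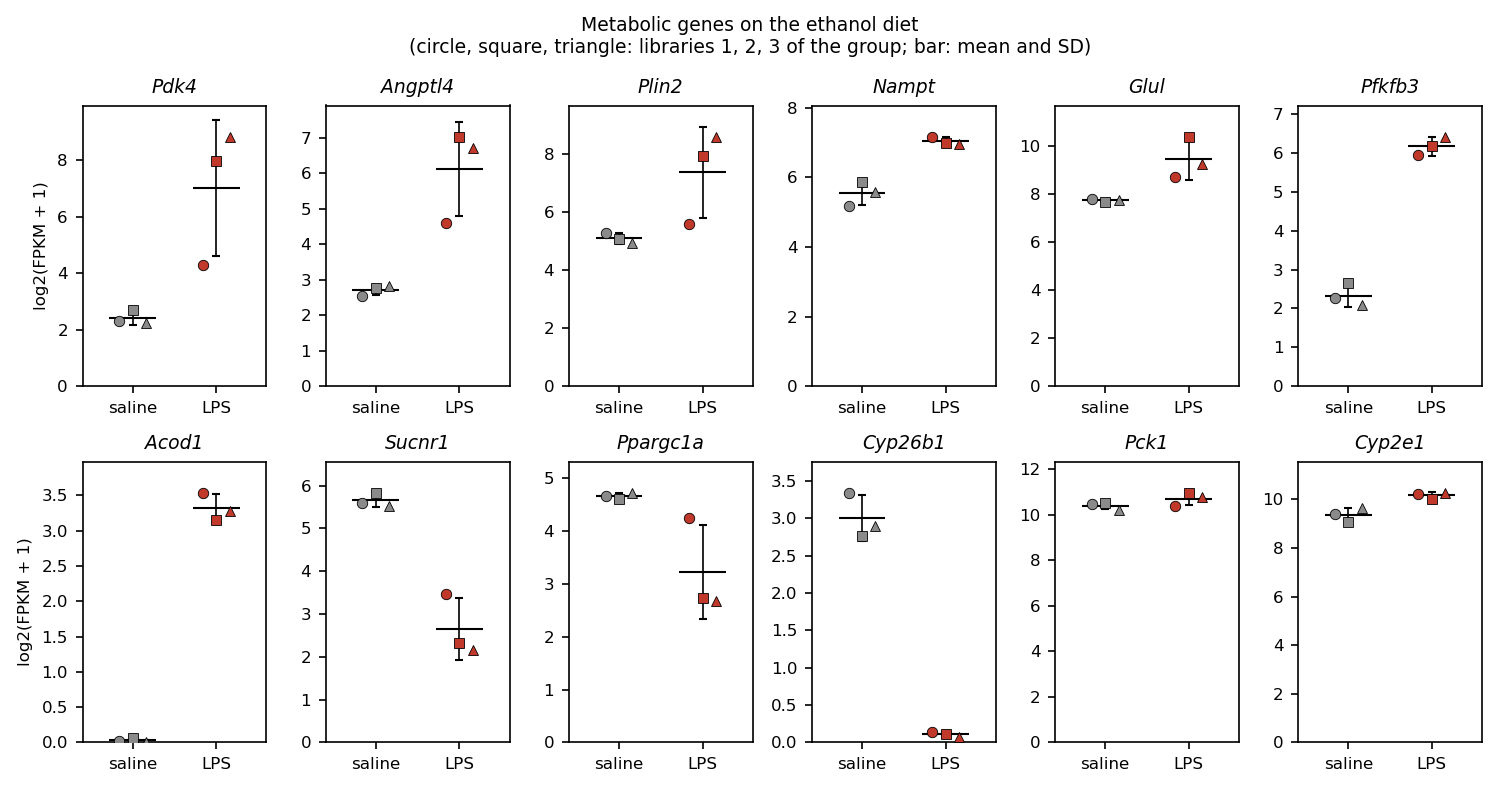
Level of 12 metabolic genes as log2(FPKM + 1) in the 3 saline (grey) and 3 LPS (red) libraries of the ethanol diet, with mean and SD; circles, squares and triangles are libraries 1, 2 and 3. In Pdk4, Angptl4, Plin2 and Ppargc1a the circle of the LPS group lies nearest to saline, while Pfkfb3, Acod1, Sucnr1 and Cyp26b1 have all LPS points far from saline.

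Both main ethanol-oxidising enzymes were called higher, with calls that depended on the setting. Cyp2e1, the ethanol-inducible P450, was at 667, 528 and 797 FPKM in saline and 1203, 1030 and 1233 FPKM in LPS libraries (0.81 ± 0.22; adjusted p = 0.0219), and the call was lost in 7 of 20 alternative analyses (adjusted p up to 0.355), among them those without EtOH library 1 or 2 or EtOH_LPS library 1 or 3. Adh1, the main alcohol dehydrogenase, was at 172, 177 and 149 and 254, 234 and 308 FPKM (0.67 ± 0.19; adjusted p = 0.0255), and the call was lost in 8 of 20 alternative analyses (adjusted p up to 0.402), among them those without EtOH library 1, 2 or 3 or EtOH_LPS library 3. They were the 2 of 13 tested genes of ethanol, acetaldehyde and acetate metabolism that passed (1 without EtOH_LPS library 1, none with equal total FPKM). Both kept their direction in all 20 alternatives, and their groups did not overlap. In pair-fed saline libraries Cyp2e1 was at 991, 1036 and 1263 FPKM and Adh1 at 252, 254 and 301 FPKM, above every ethanol-fed saline library. That difference between the diets was not tested. Cyp26b1, which degrades retinoic acid, fell from 9.13, 5.77 and 6.47 FPKM in saline to 0.101, 0.0815 and 0.0495 FPKM in LPS libraries (-2.89 ± 0.27; adjusted p = 7.75e-06). Cyp26b1 passed the expression filter through the saline libraries alone. The retinoic acid receptors Rarb (-1.23 ± 0.16) and Rarg (-1.22 ± 0.26) fell as well, whereas the synthesising enzyme Aldh1a2 rose by 1.23 ± 0.24. With Cyp26b1 these were the 4 of 12 tested genes of the pathway that passed.

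In lipid synthesis and storage 4 of 31 tested members rose and 2 fell, both shares close to those over all genes tested. With equal total FPKM the counts were 2 and 3. Elovl6, which elongates palmitate, rose by 1.26 ± 0.16, and Gpihbp1, which anchors lipoprotein lipase to capillary endothelium, fell by 1.57 on the log2 scale (adjusted p = 0.0134), and the call was lost in 2 of 19 alternative analyses (adjusted p up to 0.168), among them those without EtOH library 1. Of 30 cholesterol genes 3 rose, a share close to that over all genes tested, and 1 fell. With equal total FPKM 1 rose and 3 fell, and with equal protein-coding totals 2 and 7. Ch25h, whose product 25-hydroxycholesterol suppresses sterol synthesis, rose from 0.037, 0.382 and 0.146 to 14.8, 11.8 and 16.6 FPKM (3.69 ± 0.19), and the efflux pump Abca1 by 1.31 ± 0.26 (lost with equal total FPKM, adjusted p = 0.0556). In the circadian clock list 4 of 18 rose and 2 fell, against 2 and 3 with equal protein-coding totals. The repressor Nfil3 rose by 3.74 ± 0.33 (adjusted p = 5.03e-06), and Bhlhe40 by 1.56 ± 0.26, while Hlf, which opposes Nfil3 at the same sites, was lower (-1.15 ± 0.31), and the call was lost in 5 of 20 alternative analyses (adjusted p up to 0.0984), among them those without EtOH library 2 or 3 or EtOH_LPS library 2 or 3. The androgen-regulated Kap was at 42210, 41020 and 46570 FPKM in saline and 66560, 39340 and 58080 FPKM in LPS libraries and did not pass (0.30 ± 0.32).

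Of 26 tested endothelial identity genes 12 fell and 4 rose, with a median of -0.59 (-0.93 to -0.59 over the scalings and the GC correction). Tek, the angiopoietin receptor (chromosome 4, 94739289 to 94874976, mm10), was at 12.5, 13.5 and 12.9 FPKM in the saline libraries and 1.91, 1.45 and 1.18 FPKM in the LPS libraries (-2.48 ± 0.16; adjusted p = 2.83e-07). Kdr, the main VEGF receptor, went from 18.9, 18.4 and 22.9 to 3.52, 5.57 and 4.35 FPKM (-1.96 ± 0.18; adjusted p = 9.33e-06), and Ptprb, the phosphatase that restrains Tek, from 8.94, 9.27 and 9.66 to 2.2, 1.68 and 1.29 FPKM (-1.93 ± 0.16). In all 3 genes the groups were separated by a wide gap and the LPS libraries lay close together.

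The direction was not shared by all endothelial genes. S1pr1, the sphingosine-1-phosphate receptor that tightens the barrier, rose from 2.36, 2.6 and 3 to 24.6, 27 and 19.9 FPKM (2.76 ± 0.20; adjusted p = 6.85e-07). Further members were taken up after their values were seen. The junction cadherin Cdh5 rose from 5.5, 6.29 and 6.02 to 11.4, 19.7 and 16.9 FPKM (1.26 ± 0.23; adjusted p = 0.00214) and the guidance receptor Robo4 by 1.77 ± 0.26. Pecam1 (CD31) was at 16.9, 19.3 and 19.6 FPKM in saline and 7.08, 8.83 and 8.01 FPKM in LPS libraries (-1.13 ± 0.15; adjusted p = 0.000214) and Emcn (endomucin) at 36.2, 36.4 and 48.3 and 13.6, 12.8 and 11.2 FPKM (-1.60 ± 0.17). The VEGF receptor Flt1 did not pass, at 10.5, 12.4 and 13.3 FPKM in saline and 12.3, 14.9 and 14.7 FPKM in LPS libraries (0.20 ± 0.17). Podxl, shared by endothelium and podocytes and the most abundant of the list, did not pass either (-0.56 ± 0.23; adjusted p = 0.116).

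Among 20 tested genes of angiopoietin and VEGF signalling, a list that shares Tek, Kdr and Ptprb with the former, 6 fell (10 with equal total FPKM) and 1 rose. The one that rose was Angpt2, the stored antagonist of Tek, from 0.752, 0.727 and 0.836 to 2.43, 3.92 and 4.7 FPKM (1.37 ± 0.19; adjusted p = 0.000285). Vasoactive genes changed in both directions, 5 higher and 9 lower of 26. Gucy1a1, a subunit of the receptor for nitric oxide, fell from 11.7, 14.3 and 15.6 to 1.31, 2.73 and 1.6 FPKM (-2.39 ± 0.20; adjusted p = 2.73e-06), and Npr3, the natriuretic peptide clearance receptor, from 5.8, 6.58 and 7.72 to 1.87, 0.858 and 0.816 FPKM (-1.85 ± 0.20). The inducible cyclooxygenase Ptgs2 rose from 0.12, 0.116 and 0.108 to 10.7, 9.6 and 7.66 FPKM (3.20 ± 0.18) and the vasoconstrictor peptide endothelin Edn1 from 0.555, 0.384 and 0.352 to 3.48, 2.51 and 2.71 FPKM (1.44 ± 0.16). The vasodilator peptide adrenomedullin Adm rose by 1.26 ± 0.26, lost with equal total FPKM, adjusted p = 0.0525. The adenosine receptor Adora2b rose by 1.54 ± 0.17, and the alpha-2 adrenoceptor Adra2b, abundant in proximal tubules, fell by 0.95 on the same scale.

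Of 10 tested adhesion and activation genes 5 rose and none fell. Icam1, the ligand of leukocyte integrins, was at 3.14, 3.47 and 2.62 FPKM in saline and 129, 176 and 167 FPKM in LPS libraries (5.27 ± 0.26; adjusted p = 2.43e-08). Vcam1 rose from 2.09, 3.18 and 3.86 to 133, 97.6 and 93.7 FPKM (4.76 ± 0.20), and the selectins Selp and Sele, which let leukocytes roll, by 3.62 ± 0.23 and 3.37 ± 0.26. Coagulation and fibrinolysis genes rose in 10 of 22 tested members, with none lower and a median of 0.79. The fibrinogen chains Fga and Fgg reached 573, 1311 and 981 FPKM and 489.5, 1090 and 1045 FPKM in the LPS libraries, from means of 11.4 and 6.6 FPKM. Thbd, the thrombin receptor that starts the protein C pathway, was at 5.02, 6.57 and 5.81 FPKM in saline and 6.62, 5.55 and 6.92 FPKM in LPS libraries and did not pass (0.12 ± 0.16; adjusted p = 0.697).

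**Figure D4:**
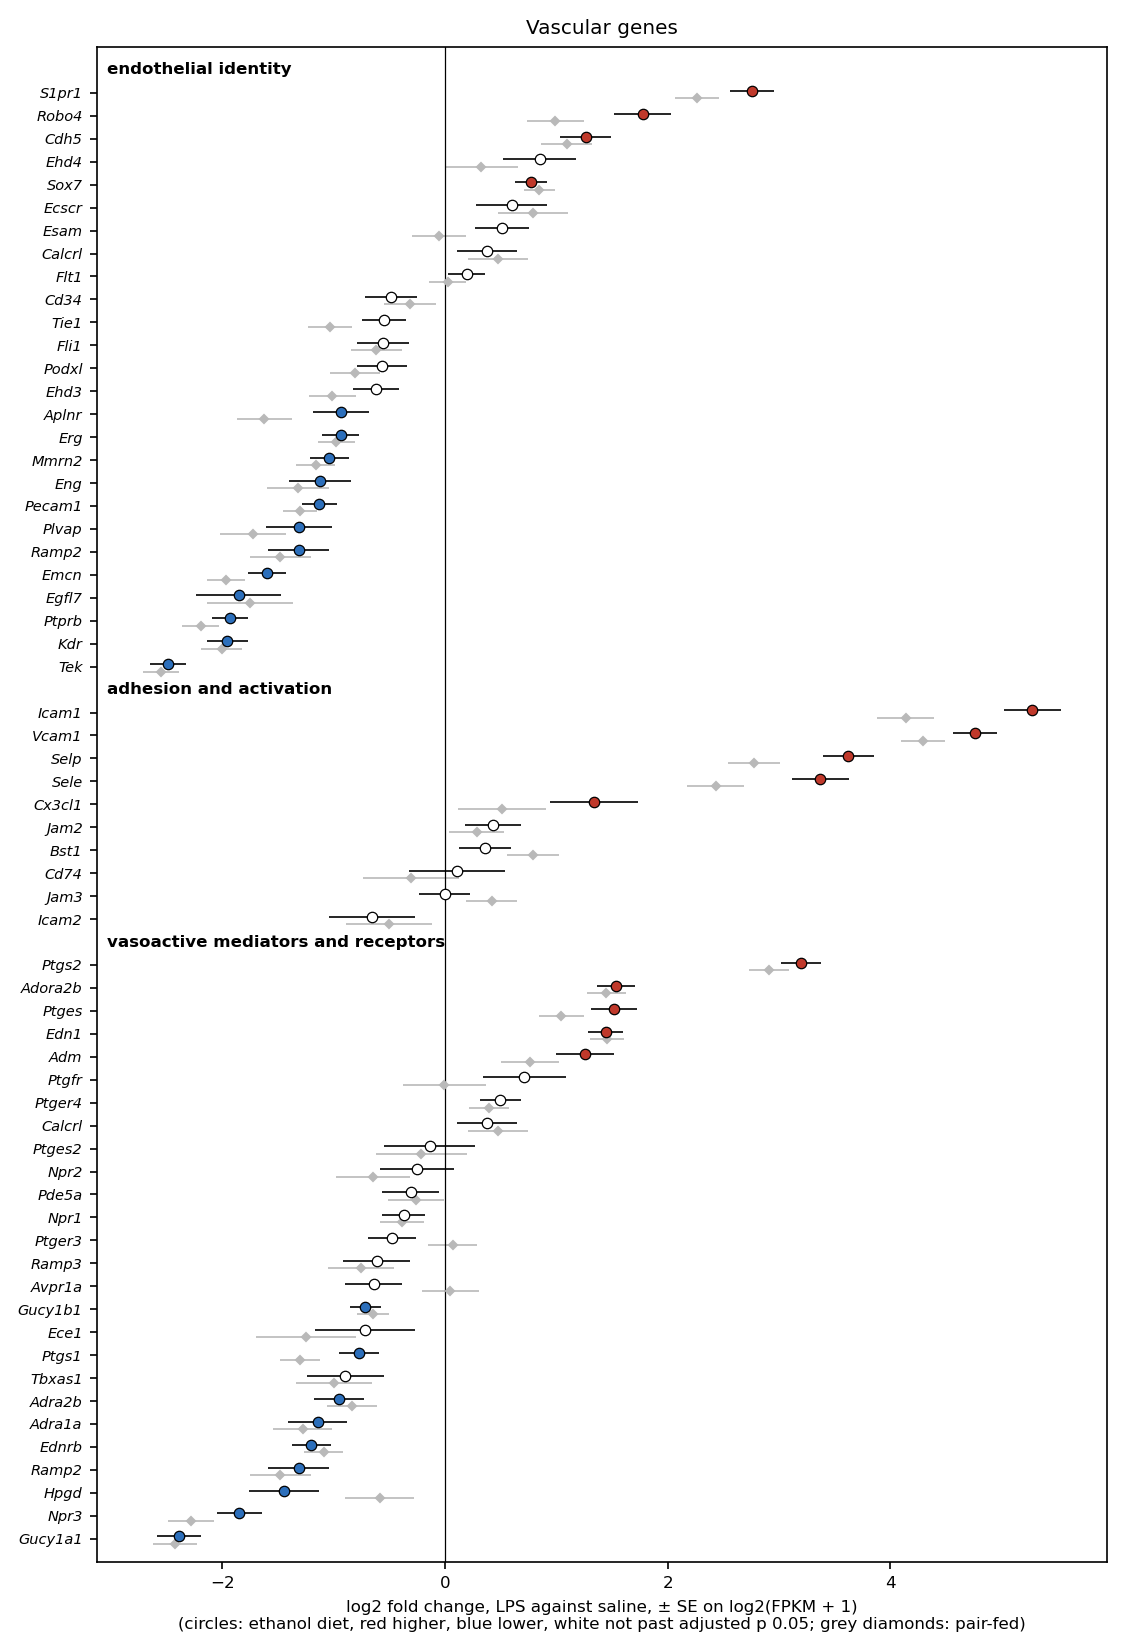
Log2 fold change of LPS against saline, with standard error, for the tested members of the endothelial identity, adhesion and vasoactive lists. Circles are the ethanol diet (red higher, blue lower, white not past the threshold), and grey diamonds show the same genes in pair-fed mice. Tek and Gucy1a1 lie farthest to the left, Icam1 and Vcam1 farthest to the right.

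Genes of the matrix and of the cell surface that passed were mostly higher. Of 10 tested ADAMTS and matrix protease genes (20 listed) 6 rose and 1 fell. Timp3, the most abundant of them, was at 471.5 and 594.3 FPKM on average and did not pass (0.34 ± 0.24; adjusted p = 0.402). The inhibitor Timp1 rose by 3.31 ± 0.34, the serpin Serpina3g by 4.47 ± 0.33, and Adamts1 from 9.33, 8.21 and 9.25 to 35.4, 143 and 84.8 FPKM (2.95 ± 0.38; adjusted p = 0.000149). In the glycocalyx list 5 of 16 rose and none fell, and the median of 0.135 became -0.104 with equal total FPKM. The heparan sulfate carriers Sdc4 and Sdc1 rose by 2.47 ± 0.25 and 1.51 ± 0.33, the chain polymerase Ext1 by 1.22 ± 0.16 and the hyaluronan receptor Cd44 by 2.91 ± 0.14. Smooth muscle and pericyte genes had 1 higher and 2 lower of 15, the lower ones being Myl9 (-1.37 ± 0.30) and Itga8 (-0.77 ± 0.17). Of 12 Notch and shear-stress genes 3 rose and 1 fell, the arterial ligand Efnb2 (-0.77 ± 0.15), against 2 and 3 with equal protein-coding totals. The stable one among those that rose was the repressor Klf10 (1.16 ± 0.20).

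Tubular injury markers rose in 12 of 17 tested members (21 listed) and fell in none, with a median of 2.30. The list holds the chemokine Cxcl1, and it shares Lcn2 with the iron and glucocorticoid lists and Vcam1 with the adhesion list. Which cells made these transcripts was not tested. Lcn2, the siderophore-binding protein NGAL, was at 0.12, 0.385 and 0.353 FPKM in saline and 68.8, 201 and 247 FPKM in LPS libraries (6.89 ± 0.45; adjusted p = 4.08e-07). Havcr1, the phosphatidylserine receptor KIM-1 of injured proximal tubules, was at 0.584, 0.45 and 0.471 and 3.46, 23.3 and 29.1 FPKM (3.31 ± 0.59; adjusted p = 0.00214). Library 1 was the lowest LPS library in both genes, and for Havcr1 it lay between saline and the other two. Spp1 (osteopontin) rose from 322, 369 and 444 to 2885, 4590 and 4321 FPKM (3.36 ± 0.24; adjusted p = 6.3e-07), with library 1 again lowest, and the scaffold protein Akap12 rose by 4.36 ± 0.24. In the dedifferentiation and repair list 8 of 17 rose (5 with equal total FPKM) and none fell. The EGF-receptor ligand Hbegf rose from 3.91, 3.41 and 5.08 to 14.8, 40.2 and 47.1 FPKM (2.63 ± 0.34; adjusted p = 0.000152), and Sox9, a factor of regenerating tubules, from 0.0972, 0.0975 and 0.0959 to 2.71, 2.71 and 9.81 FPKM (2.27 ± 0.37), highest in library 3.

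Transcription factors that maintain nephron segments fell in 10 of 22 tested members and rose in 3, with a median of -0.49 (-0.80 to -0.35 over the scalings and the GC correction). Klf15, a factor of podocytes and proximal tubules, fell from 14.2, 15 and 15.5 to 3.73, 2.92 and 3.08 FPKM (-1.91 ± 0.18; adjusted p = 8.82e-06). Maf fell from 48.6, 60.4 and 60.7 to 23.3, 10.8 and 7.4 FPKM (-2.09 ± 0.39; adjusted p = 0.00252) and the orphan receptor Nr2f2 from 24.5, 40.4 and 37.9 to 12.7, 9.77 and 8.34 FPKM (-1.63 ± 0.31). Elf3, an epithelial factor induced by NF-kB, rose from 2.66, 2.42 and 1.7 to 15.2, 20.2 and 14.2 FPKM (2.42 ± 0.30; adjusted p = 0.000108). The proximal tubule regulator Hnf4a was at 129, 102 and 122 FPKM in saline and 91.7, 74.5 and 49.7 FPKM in LPS libraries, with no overlap, and did not pass (-0.74 ± 0.24; adjusted p = 0.0568).

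Most proximal tubule transport genes did not pass. Of 28 tested sodium, glucose, phosphate and sulfate transport genes 3 rose, a share close to the 11.2% over all genes tested, and none fell. Slc13a1, the sodium-sulfate cotransporter, rose from 239, 225 and 308 to 968, 1270 and 967 FPKM (2.05 ± 0.21; adjusted p = 2.23e-05). The phosphate carrier and retrovirus receptor Slc20a1 rose from 9.73, 10.8 and 8.34 to 46.7, 90.6 and 64.9 FPKM (2.64 ± 0.27) and the glucose cotransporter Slc5a1 from 17.7, 17.6 and 21.9 to 40.4, 81.6 and 46.4 FPKM (1.45 ± 0.24). The bulk transporters did not pass: Slc34a1 was at 821, 826 and 698 FPKM in saline and 639, 742 and 931 FPKM in LPS libraries (-0.04 ± 0.24; adjusted p = 0.949). The groups overlapped. Slc5a2, the main glucose transporter of the early proximal tubule, was at 116, 94.1 and 106 FPKM in saline and 81.5, 115 and 130.5 FPKM in LPS libraries (0.03 ± 0.32; adjusted p = 0.968). Of 22 amino acid and peptide transport genes 1 rose, Slc38a2 (1.20 ± 0.25; lost with equal total FPKM, adjusted p = 0.0506), and 2 fell. Slc43a2, a facilitator for large neutral amino acids, fell from 55.8, 43.3 and 54.9 to 24.2, 13.2 and 11.5 FPKM (-1.66 ± 0.32; adjusted p = 0.00324). The other was Slc36a1 (-0.82 ± 0.25; lost in 7 of 20 alternatives, adjusted p up to 0.158, also without EtOH library 1, 2 or 3 or EtOH_LPS library 2 or 3). None of the 28 organic ion transport genes passed.

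Genes of the thick ascending limb and collecting duct that passed were mostly lower. In the thick ascending limb 5 of 16 tested genes fell (8 with equal total FPKM) and none rose. Bsnd, the subunit that chloride channels need to reach the membrane, fell from 6.3, 6.52 and 5.43 to 0.95, 0.465 and 0.568 FPKM (-2.10 ± 0.19; adjusted p = 5.99e-06). Kcnj1, the potassium channel ROMK, was at 77, 69.8 and 85.7 FPKM in saline and 63.2, 29 and 34.3 FPKM in LPS libraries (-0.94 ± 0.25; adjusted p = 0.0219), and the call was lost in 6 of 20 alternative analyses (adjusted p up to 0.0997), among them those without EtOH library 1 or 3 or EtOH_LPS library 2 or 3. Umod (uromodulin), the most abundant secreted protein of the segment, was at 528, 592 and 481 and 459, 872 and 776 FPKM and did not pass (0.35 ± 0.26). In the collecting duct 4 of 18 principal cell genes fell. Of these, Hsd11b2, St6gal1 and Gata2 lost the call in 8 of 20, 6 of 20 and 4 of 19 alternative analyses. Avpr2, the vasopressin receptor, fell from 5.24, 5.26 and 3.72 to 1.05, 0.462 and 0.386 FPKM (-1.82 ± 0.19; adjusted p = 2e-05), whereas the water channel Aqp2 was at 4.09, 4.88 and 4.31 FPKM in saline and 3.66, 3.96 and 7.93 FPKM in LPS libraries and did not pass (0.12 ± 0.41). Of 17 intercalated cell genes 3 fell and 1 rose. The lower Oxgr1 and Atp6v1c2 and the higher Atp6v0a4 lost the call in 6, 4 and 6 of 20 alternatives. Slc4a1, the chloride-bicarbonate exchanger, which erythroid cells also make, fell from 9.28, 5.76 and 8.68 to 2.62, 3.07 and 3.25 FPKM (-1.14 ± 0.27; adjusted p = 0.00974). Erythroid markers as a list, 6 of 7 tested, had 1 higher and 1 lower member, summed to 129 to 257 FPKM in saline and 235 to 521 FPKM in LPS libraries, and their part in this result was not tested.

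Calcium and sodium handling of the distal convoluted and connecting tubule moved in both directions, with 3 higher and 4 lower of 19. The calcium entry channel Trpv5 rose from 3.57, 3.42 and 4.59 to 14.9, 19.3 and 21.3 FPKM (2.00 ± 0.18; adjusted p = 7.75e-06), and the potassium channel Kcnj10, which sets the membrane voltage of the segment, was lower (-1.12 ± 0.27; adjusted p = 0.0114). For Kcnj10 the call was lost in 2 of 20 alternative analyses (adjusted p up to 0.0551), all those without EtOH_LPS library 2 or 3. The thiazide-sensitive cotransporter Slc12a3 was at 78.3, 68.3 and 55.9 FPKM in saline and 51.6, 70 and 90.1 FPKM in LPS libraries (0.04 ± 0.37; adjusted p = 0.963). In the list of vitamin D, calcium and phosphate hormones 2 of 17 rose, Trpv5 and the paracrine calcium regulator Stc1 (1.59 ± 0.16), and 2 fell (4 without EtOH_LPS library 1). The share that rose was close to the 11.2% over all genes tested. Cyp24a1, which inactivates vitamin D hormones, was at 18.8, 11.4 and 47.3 FPKM in saline and 35.4, 8.07 and 4.87 FPKM in LPS libraries and did not pass (-0.87 ± 0.63). The anti-ageing coreceptor Kl was at 157 and 148 FPKM on average (-0.12 ± 0.25).

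Of 17 tested tight junction genes 2 rose, a share close to the 11.2% over all genes tested, and 2 fell. Cldn7, a claudin of the distal nephron, rose by 1.79 ± 0.40, and the pore-forming Cldn15 fell by 1.59 on the log2 scale. The others were Cldn4 (1.09 ± 0.32; lost in 8 of 19 alternatives, adjusted p up to 0.137, also without EtOH library 1, 2 or 3 or EtOH_LPS library 2 or 3) and Cldn8 (-1.37 ± 0.43; lost in 12 of 20 alternatives, adjusted p up to 0.169, also without EtOH library 1, 2 or 3 or EtOH_LPS library 2 or 3). Of secreted factors, Igfbp5, which binds insulin-like growth factors, fell from 61.7, 62.2 and 67.5 to 17.3, 14.5 and 10.1 FPKM (-2.14 ± 0.20; adjusted p = 7.68e-06), and the activin subunit gene Inhbb rose by 2.81 ± 0.23. Of 20 podocyte genes 2 fell, Clic3 (-1.77 ± 0.31) and the podocyte factor Tcf21 (-0.90 ± 0.23; lost in 4 of 19 alternatives, adjusted p up to 0.0749, also without EtOH library 2 or 3 or EtOH_LPS library 1), against 5 with equal total FPKM. The share of podocyte genes that fell in the main analysis was not far above the 7.06% over all genes tested.

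**Figure D5:**
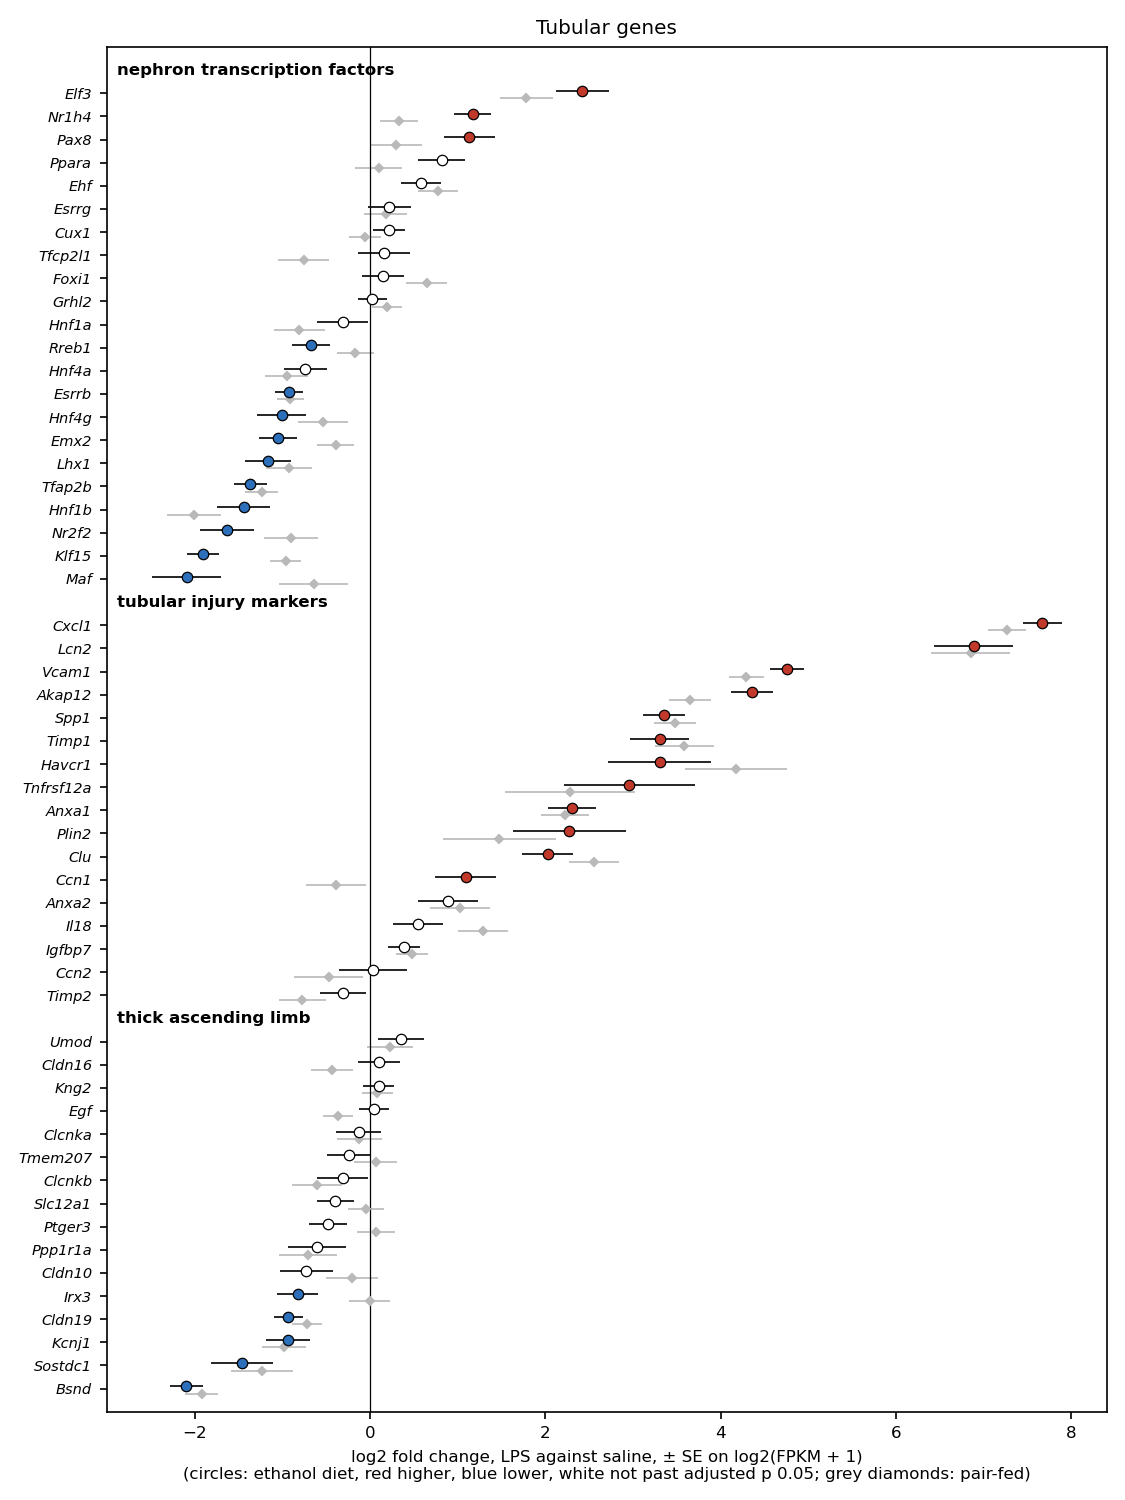
Log2 fold change of LPS against saline, with standard error, for the tested nephron transcription factors, tubular injury markers and thick ascending limb genes. Circles are the ethanol diet (red higher, blue lower, white not past the threshold), and grey diamonds are pair-fed mice. Maf, Klf15 and Nr2f2 lie farthest to the left among the factors, Cxcl1 and Lcn2 farthest to the right among the injury markers, and Bsnd farthest to the left in the thick ascending limb.

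Genes outside these lists with large decreases were Ptpru, a receptor phosphatase (13.5, 8.3 and 11.1 FPKM in saline and 0.788, 0.682 and 0.277 FPKM in LPS libraries; -2.91 ± 0.31), and Tlr12, a sensor of the Toll-like family (-2.51 ± 0.24). The endothelial sialomucin gene Cd300lg fell by 2.24, and the scaffold gene Slc9a3r2 by 2.15. The small nucleolar host RNA Snhg9 was at 7.85, 2.54 and 5.83 FPKM in saline and listed at 0 in all 3 LPS libraries, with no fold given, and the call was lost in 9 of 19 alternative analyses (adjusted p up to 0.146), among them those without EtOH library 1, 2 or 3 or EtOH_LPS library 1, 2 or 3.

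The LPS effect was then compared with that in pair-fed mice by the interaction of diet and LPS. It passed for 3 of the 12946 genes (0.0232%), all small RNA genes listed at 0 in 9 of the 12 libraries, and 566 genes had an unadjusted p under 0.05. Among protein-coding genes named here the smallest interaction p belonged to Hmox1, which rose by 4.45 on the ethanol diet and 2.26 in pair-fed mice (difference 2.19 ± 0.51; adjusted p = 0.73). Its values in pair-fed mice were 5.77, 7.6 and 7.66 FPKM in saline and 52.9, 23.7 and 40.5 FPKM in LPS libraries. Hspa1b rose by 1.81 in pair-fed mice against 0.35 on the ethanol diet (difference -1.46 ± 0.35; adjusted p = 0.787). Cyp24a1 fell by 4.33 in pair-fed mice, from 41.2, 54.2 and 47.5 to 1.17, 2.2 and 1.01 FPKM, against -0.87 on the ethanol diet (difference 3.46 ± 0.89; adjusted p = 0.787). The interaction estimates of Cyp26b1 and Klf15 were -1.49 ± 0.38 and -0.94 ± 0.25 (adjusted p = 0.787 for both), and that of Angptl4, which did not pass in pair-fed mice (1.08), was 2.33 ± 0.81 (adjusted p = 0.963). Cyp26b1 was at 0.872, 3.5 and 1.48 FPKM in pair-fed saline and 0.0402, 0.0203 and 0.0505 FPKM in pair-fed LPS libraries, so the saline libraries differed between the diets more than the LPS libraries did. Angptl4 also differed in saline, at 16.6, 20.5 and 12.8 FPKM in pair-fed and 4.82, 5.76 and 6.07 FPKM in ethanol-fed libraries. Its pair-fed LPS libraries were at 46.8, 17.8 and 53.6 FPKM. None of the interaction estimates given here passed, and the genes were picked after their values were seen.

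The counts by list are given side by side, and their difference between the diets was not tested. Over all genes tested, 1479 (11.4%) were higher and 934 (7.21%) lower in pair-fed mice, against 11.2% and 7.06% on the ethanol diet, with the spread estimated from the same 12 libraries. The expression filter used the ethanol-diet libraries alone, so genes that reached 1 FPKM only in pair-fed mice are missing from the pair-fed counts. Immediate early genes rose in 19 members on the ethanol diet and 17 in pair-fed mice, injury markers in 12 and 10, and endothelial identity genes fell in 12 and 15. Nephron transcription factors fell in 10 members on the ethanol diet and 6 in pair-fed mice. Heat-shock genes rose in 2 and 6 members, reticulum stress genes in 3 and 7 and NRF2 targets in 6 and 4.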

How the data were processed

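RNA-seq of kidney cortex was used as the authors deposited it, in 1 table of FPKM values for 47719 genes and 12 libraries. The build was mm10 and the listed software Cuffnorm, Cuffdiff 2.1.1, Cufflinks 2.2.1, TopHat2 2.0.4 and FastQC 0.10.1, per the submitters' processing notes. The sources used here give neither annotation release nor strand setting, so a gene and an overlapping antisense gene may share fragments. Per the labels' protocols, libraries were made from mirVana total RNA with TruSeq Stranded Total RNA and Ribo-Zero Gold. FPKM are not counts, so no count model was run and no counting error can be given. Names and coordinates came from GENCODE M21 (GRCm38, also called mm10), which held 47305 of the genes and not 414. All 37 mitochondrial genes are listed at 0, so a 0 can be a failed estimate.

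In limma 3.58.1 (R 4.3.3), log2(FPKM + 1) of genes reaching 1 FPKM in 3 or more of the 6 ethanol-diet libraries was fitted with 1 mean per group over all 12 libraries (8 residual degrees of freedom), with intensity trend and robust prior. Tests were two-sided, adjusted by the Benjamini-Hochberg method over all 12946 genes, with a threshold of 0.05. The script was tested on simulated data. An exact permutation test of 3 against 3 cannot go below p = 0.1 and was not used. The 67 lists hold 1356 genes, of which 1354 matched the table, 4 by another symbol. They and the compared libraries were chosen with earlier results of these data known, so they are described by counts, without set tests. Genes were named by rule: the 12 largest changes in each direction among non-overlapping genes with a higher mean of at least 5 FPKM, without predicted and small RNA genes; up to 4 members past the threshold and the most abundant member of each list; a panel of 33 genes; and genes past the interaction threshold. RefSeq promoters (GRCm38.p6) were searched for motifs on both strands. Some named genes are not reported here.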

Additional observations from a re-analysis of the deposited data

Results flagged for a closer look

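The interaction of diet and LPS passed the threshold in 3 genes, all of them small RNA genes that passed the expression filter through 1 group alone. No difference between the diets is read from them, since each is listed at 0 in 9 of the 12 libraries and a 0 can be a failed estimate. The small nuclear RNA gene Gm23731 (ENSMUSG00000065683, chromosome 2, 102897960 to 102898066, mm10) was listed at 0 in the 3 EtOH libraries and at 19.1, 18.6 and 33.5 FPKM in the EtOH_LPS libraries, and at 0 in all 6 pair-fed libraries. Its fitted interaction, whose size depends on the pseudocount, was 4.577 log2 units (limma adjusted p = 7.87e-06). The small nucleolar RNA gene Gm24337 (ENSMUSG00000077392, chromosome 4, 5687677 to 5687802) was at 22.5, 29.2 and 7.45 FPKM in EtOH and listed at 0 in EtOH_LPS and in all pair-fed libraries, with a fitted interaction of -4.183 (adjusted p = 0.00825). The microRNA gene Mir1966 (ENSMUSG00000089432, chromosome 8, 105615466 to 105615573) was at 13.3, 17.4 and 13.3 FPKM in EtOH and listed at 0 elsewhere, with a fitted interaction of -3.955 (adjusted p = 1.37e-06). With 1 group of each gene above 0, these fitted values are also the fitted changes against groups at 0 and are no measure of fold.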

How the results depend on the processing

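The counts of genes higher and lower were recomputed under 20 alternatives, of which 1, the removal of the GC trend, was chosen after seeing the data. The interaction had a value in 19 of them, and of 230 named genes 189 had one in all 20 and 41 in 19. With a filter of 5 FPKM the lower genes numbered 321. Equal total FPKM gave 926 higher and 1749 lower genes, equal protein-coding totals 2260 lower, and array weights 1521 lower and 5 interaction genes. Leaving out each of the 6 libraries in turn gave 1137 to 1485 higher genes, 542 to 1097 lower genes and 3 to 4 interaction genes. With the GC trend removed, 1737 genes were higher and 1061 lower. Of 185 named genes past the threshold, 131 kept their call in every alternative that gave a value, 54 lost it in at least 1 and none reversed, while 7 of the 45 others gained one. The replicate numbers were not used to pair the samples. Deviations of same-numbered libraries from their group means correlated at -0.113, -0.062 and -0.068. With 3 libraries per group these deviations depend on each other, so the correlations cannot decide whether the samples were paired. With a replicate block, 1359 genes were higher and 813 lower, with 3 interaction genes. Depth is unknown in fragments, so genes near 1 FPKM carry the most uncertainty. The cause of these differences between settings was not tested.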

Other observations

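Zinc-finger genes of the Zfp series, a group picked after the values were seen and given without a test, fell in 73 of 257 tested protein-coding members (28.4%, against 7.06% of all genes) and rose in 6. Most encode nuclear DNA-binding proteins of low abundance, and their median level in EtOH was 3.97 FPKM. The median fold change was -0.41, between -0.69 and -0.38 over the scalings and the GC correction. With equal total FPKM 120 members fell, and with equal protein-coding totals 127. Zfp101 was at 11.3, 12.2 and 9.36 FPKM in saline and 3.48, 5.46 and 2.03 FPKM in LPS libraries (log2 fold change -1.42 ± 0.28; limma adjusted p = 0.00368), and Zfp961 at 11.4, 10.2 and 14.9 and 7.06, 4.61 and 4.5 FPKM (-1.05 ± 0.23; adjusted p = 0.00747). Among the 6 that rose was Zfp36 (tristetraprolin), an RNA-binding protein that destabilises cytokine mRNA, at 5.75, 8.33 and 10 FPKM in saline and 57.6, 56.3 and 49 FPKM in LPS libraries (2.64 ± 0.21; adjusted p = 1.66e-06). With a filter of 5 FPKM, 14 of 107 members fell and 5 rose, where 3.81% of all genes tested fell, and without EtOH_LPS library 1, 87 fell. In pair-fed mice 25 members fell and 14 rose, where 7.21% of all genes fell and 11.4% rose, with a median of -0.10. No member passed the interaction test.

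For comparison, 251 solute carrier genes (Slc) had 23 higher and 18 lower members (13 and 37 with equal total FPKM, 16 and 51 with equal protein-coding totals), and none of 74 ribosomal protein genes (Rpl and Rps) passed by limma. The median of the ribosomal genes, 0.27, became -0.05 with equal total FPKM.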
